A study of Mus musculus with 6 samples.

Results

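Purine nucleotides were followed through the genes of the enzymes that make and recover them, in neurospheres of mice in which 1 of those genes, Gart, is present in 3 copies. The 10 genes were taken from the known order of the pathway, though earlier results of these data were known when they were chosen. They were Ppat, Gart, Pfas, Paics, Adsl and Atic of de novo synthesis, Impdh2 and Gmps of the branch to GMP, and the salvage genes Hprt and Aprt. All probe sets to which the platform annotation gives 1 of these symbols alone were used. This gave 20 probe sets for 9 genes, of 34945 such probe sets for 18193 genes on the array. Impdh2, an IMP dehydrogenase, had no such probe set and is not analysed here. Of the 20 probe sets, 18 had a mean log2 intensity over the 6 arrays (A) above 5, the level at which a probe set was counted as expressed. The other two were 1 probe set of Ppat, at the lowest value of the arrays (2.23) on all 6, and 1 of Atic with A = 3.09.

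Cells were grown for 7 days as neurospheres, floating clusters of neural stem and progenitor cells, from the subventricular zone of female mice at 84 days of age. The Ts1Cje mice, on a C57BL/6 background, carry the end of chromosome 16 from Sod1 on in 3 copies, with the added Sod1 copy not functional, and were genotyped by their neomycin sequence, while the controls were disomic C57BL/6 littermates. The study describes its cultures as pairs of littermates, but the sample titles do not say which arrays form a pair. RNA of 3 Ts1Cje and 3 disomic cultures went through 2 rounds of labelling and onto 1 Affymetrix mouse genome array each. The deposited values are log2 intensities, and M is the Ts1Cje mean of a probe set less its disomic mean on this scale, so that an M of 0.58 is a ratio of 1.5.

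De novo purine synthesis builds the purine ring step by step on phosphoribosyl pyrophosphate (PRPP) until inosine monophosphate (IMP) is formed. Ppat commits PRPP to the pathway, Gart carries out several of the next steps within 1 protein, and Pfas, Paics, Adsl and Atic complete the ring, with Adsl acting again where IMP is turned into AMP. Impdh enzymes and Gmps lead from IMP to GMP, while Hprt and Aprt recover free bases with PRPP and so spare the long route. Dividing cells, such as neural progenitors, need purines for DNA and RNA, and human GART lies on the chromosome that is trisomic in Down syndrome.

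The deposited values, already normalized by the authors, had medians from 2.69 to 2.71 and correlations between pairs of arrays from 0.991 to 0.997. Normalization evens the scale of arrays, so that the like medians are no measure of array quality. Markers of neural stem cells and progenitors were expressed for 10 of 11 genes, among them Sox2, Nes and Fabp7, while Gfap lay below the level for expression at A = 4.87. Gfap varied widely between arrays, with 5.42, 5.72 and 3.61 on disomic and 2.37, 5.75 and 6.36 on Ts1Cje arrays. None of 8 microglial and none of 8 vascular markers were expressed, with 6 and 7 of them within 0.1 of the lowest value. The mean log2 level of the microglial list was 2.28 to 2.30 on disomic and 2.28 to 2.33 on Ts1Cje arrays, and that of the vascular list 2.30 to 2.32 and 2.30 to 2.34. Of 8 neuroblast and neuron markers only Map2 was expressed and Dcx was near the lowest value. The expressed oligodendrocyte markers were 3 of 5, Mbp, Cnp and Sox10, with Mog near the lowest value. Of 5 ependymal markers only Dnah11 had A above 5, with M = 9.21 and an adjusted p of 0.0257 in limma, while Foxj1 had A = 2.69. Dnah11 passed that level through the Ts1Cje arrays alone (11.94 to 12.54, against 2.83 to 3.09 on disomic arrays). The study places this gene (as Dnahc11) close to the translocation break point on chromosome 12. It holds the rise to be likely particular to Ts1Cje mice.

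Gart was the only member gene for which all Ts1Cje arrays lay above all disomic arrays on every one of its probe sets. The gene (Entrez 14450) lies on chromosome 16 from 91621395 to 91646972 in GRCm38.p6, on the minus strand, inside the trisomic segment. Its brightest probe set, 1416283_at, read 9.72, 9.23 and 9.56 on the disomic arrays and 10.27, 10.19 and 10.02 on the Ts1Cje arrays. All 3 Ts1Cje values lay above all disomic values. The disomic mean was 9.50 ± 0.25 and the Ts1Cje mean 10.16 ± 0.13 (SD, 3 arrays each), with M = 0.66 and a standard error of 0.15. This is a ratio of 1.58, with a 95% confidence interval from 1.18 to 2.10 that holds the ratio of 1.5 of gene copies. The moderated t of limma was 4.23, past the value of 4 that was used as a threshold, and the adjusted p was 1. A moderated t above 4 was reached by 0.965% of all 16371 expressed probe sets, and an adjusted p under 0.05 by 0.00611% of them, or 1 probe set, which was not of a member gene.

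The other probe sets of Gart gave nearly the same ratio at lower signal. On 1424436_at the disomic arrays read 8.54, 8.73 and 8.11 and the Ts1Cje arrays 9.46, 8.92 and 8.94 (M = 0.65, standard error 0.24). On 1424435_a_at, which was designed on the same transcript (U01023), they read 6.45, 6.42 and 6.13 against 7.47, 6.85 and 6.47 (M = 0.60, standard error 0.30). On 1441911_x_at they read 5.83, 5.72 and 5.26 against 6.44, 5.90 and 6.26 (M = 0.60, standard error 0.23). Groups did not overlap on any of the 4 probe sets of Gart, whereas all Ts1Cje arrays lay above all disomic arrays on 5.53% of expressed probe sets. The suffix of 1441911_x_at marks probes that may also bind other transcripts. All 4 probe sets are annotated to the same gene and are not independent of each other. Only the brightest reached a moderated t of 4 in limma, the others having 2.67, 1.99 and 2.62, each with a 95% confidence interval of M that held 0. Ts1Cje replicate 1 was the highest array on all 4 probe sets, and disomic replicate 3 was the lowest on the 3 dimmer ones. The call of the brightest probe set was lost when Ts1Cje replicate 1 (moderated t = 3.23), Ts1Cje replicate 2 (3.25) or disomic replicate 3 (3.52) was left out, and also when only expressed probe sets were fitted (3.98) or the 4 probe sets were averaged (M = 0.62, moderated t = 3.51), but M of the brightest stayed between 0.52 and 0.76 whichever array was left out.

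**Figure D1:**
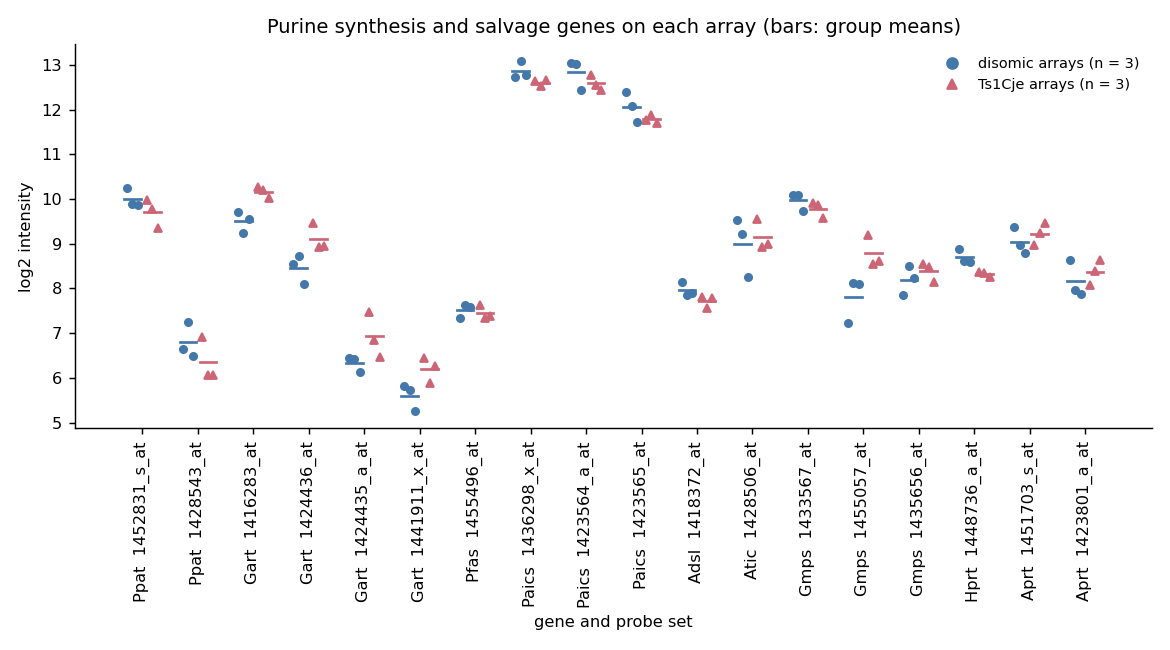
Log2 intensity of the 18 expressed probe sets of purine synthesis and salvage genes on each array, with circles for the 3 disomic arrays, triangles for the 3 Ts1Cje arrays and bars for group means. On the 4 Gart probe sets every Ts1Cje array lies above every disomic array, and intensities of different probe sets cannot be compared with each other.

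The promoter of Gart is shown because the gene is the only member present in 3 copies and because it starts beside another trisomic gene, Son, which encodes a protein of nuclear speckles. Gart and Son are transcribed away from each other, with 851 bases between their starts. The window from 250 bases before to 50 bases after the start of Gart in RefSeq (GRCm38.p6, chr16:91646923-91647222, minus strand) reads as follows, with capitals at a GC box (GGGCGG) and a CCAAT box.
Gart: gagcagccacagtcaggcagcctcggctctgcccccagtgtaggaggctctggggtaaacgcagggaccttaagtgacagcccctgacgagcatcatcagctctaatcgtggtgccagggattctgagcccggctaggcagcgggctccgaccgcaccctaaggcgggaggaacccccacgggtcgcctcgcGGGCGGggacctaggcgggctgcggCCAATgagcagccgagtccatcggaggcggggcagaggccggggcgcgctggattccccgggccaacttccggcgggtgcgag

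Genes beside Gart on chromosome 16, all of them trisomic, had M values mostly below that of Gart, with only Tmem50b and Ifnar2 above it. The 5 nearest expressed genes on either side, each by its brightest probe set, all had an M above 0, with a median of 0.47 and a range from 0.13 to 0.83. Over all expressed probe sets the median M was 0.01. Son had M = 0.54 (standard error 0.21), with values from 9.88 to 10.35 on disomic and from 10.41 to 10.94 on Ts1Cje arrays, which did not overlap. The 3 neighbours with a moderated t above 4 in limma were Tmem50b (M = 0.73, moderated t = 12.11), Cryzl1 (M = 0.65, moderated t = 6.20) and Ifnar1 (M = 0.50, moderated t = 4.29), a subunit of the type I interferon receptor. Ifnar2, Itsn1 and Atp5o also had groups that did not overlap, with M values of 0.83, 0.41 and 0.44. Of all expressed probe sets, 0.965% had a moderated t above 4. The Ts1Cje arrays lay above all disomic arrays for 7 of the 10 neighbours, against 5.53% of expressed probe sets. Over 4 expressed probe sets each, M ran from 0.33 to 0.65 for Cryzl1, from 0.11 to 0.64 for Itsn1 and from 0.44 to 0.65 for Son. The groups overlapped for Il10rb (M = 0.32), Olig1 (M = 0.13) and Donson (M = 0.15), whose annotated span overlaps that of Son. Among all 44 trisomic genes with an expressed probe set, whose median M was 0.53 and whose quartiles were 0.37 and 0.66, Gart ranked 12th from the highest.

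**Figure D2:**
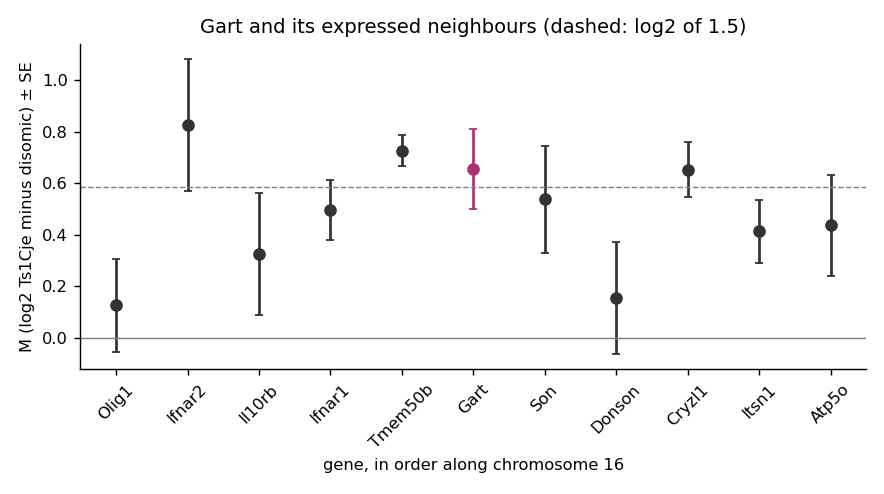
M with its standard error, from 3 Ts1Cje and 3 disomic arrays, for Gart and the 5 nearest expressed genes on either side in their order on chromosome 16, with the log2 of 1.5 as a dashed line. Gart (M = 0.66) lies between Tmem50b (0.73) and Son (0.54), and Olig1 and Donson lie nearest to 0.

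No other member passed the test. Outside the trisomic region, 14 expressed probe sets stood for 8 member genes. None of them had a moderated t past 4 in limma in either direction. For 2 of them, that of Hprt and 1455057_at of Gmps, the unadjusted p in limma was under 0.05. Of all expressed probe sets, 1.78% had a moderated t past 4 and 6.18% an unadjusted p under 0.05. Of the 14, 9 had an M below 0, against 48.4% of all expressed probe sets with M below 0 and 51.6% with M above 0, and their median M was -0.22. The groups did not overlap on 3 of the 14 with lower values in Ts1Cje, against 5.21% of all, and on 1 with higher values. Over all 18 expressed member probe sets they did not overlap on 8, of which 4 were those of Gart, against 10.7% of all. Among the 5 de novo enzymes outside the trisomic region, Ppat, Pfas, Paics, Adsl and Atic, 7 of 8 probe sets had an M below 0, with a median of -0.25 and a range from -0.44 to 0.16. Since the groups hold bulk cultures, fewer cells of a type and less RNA per cell cannot be told apart.

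Ppat, which catalyses the committed first step, and Paics, which acts after Gart and carries out a pair of steps, start next to each other on chromosome 5. Ppat runs from 76913249 to 76951578 on the minus strand and Paics from 76951302 to 76967509 on the plus strand, and their annotated spans share 277 bases at their starts. Their promoter windows (GRCm38.p6, chr5:76951529-76951828 for Ppat and chr5:76951052-76951351 for Paics) are shown because the pair start head to head and had M values of like size on the arrays. Capitals mark the GC box (GGGCGG), the CCAAT box and the E-box (CACGTG), a sequence to which Myc and related factors can bind.
Ppat: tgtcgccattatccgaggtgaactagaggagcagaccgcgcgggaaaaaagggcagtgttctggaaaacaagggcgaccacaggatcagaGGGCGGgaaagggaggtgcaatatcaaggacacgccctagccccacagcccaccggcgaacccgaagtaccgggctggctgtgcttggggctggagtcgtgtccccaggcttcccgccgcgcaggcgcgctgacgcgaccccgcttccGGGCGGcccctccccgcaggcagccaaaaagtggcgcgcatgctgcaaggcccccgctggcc
Paics: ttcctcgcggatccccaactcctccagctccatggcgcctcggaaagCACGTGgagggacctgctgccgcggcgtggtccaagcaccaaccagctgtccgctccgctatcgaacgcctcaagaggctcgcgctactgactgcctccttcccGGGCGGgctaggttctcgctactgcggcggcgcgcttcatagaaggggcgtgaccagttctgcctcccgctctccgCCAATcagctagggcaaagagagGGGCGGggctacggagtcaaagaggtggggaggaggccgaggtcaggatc
All 9 member genes with a promoter in the RefSeq table, Impdh2 among them, held a GC box on either strand, as did 35.7% of all 32851 promoters of that length. The E-box stood in 3 of the 9, those of Paics, Atic and Impdh2, against 7.15% of all promoters, and the CCAAT box in 4 of the 9 against 37.4%. The consensus motif of the factor NRF1, searched on both strands like the others, was in none of the 9 and in 0.971% of all promoters. The windows of the 9 held from 53.7% (Gmps) to 69.7% (Atic) of G and C, and no background of like base content was taken. That of Gmps (chr3:63975893-63976192) lies inside the annotated span of the gene, from 63963633 to 64021554, and not at its start. These are matches of letters, and the arrays hold no measure of binding. Pfas had no entry.

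Paics was lower in Ts1Cje by a similar M on its 3 probe sets, without passing the test. The brightest, 1436298_x_at, read 12.72, 13.07 and 12.78 on disomic and 12.64, 12.52 and 12.65 on Ts1Cje arrays, a mean of 12.86 ± 0.19 against 12.60 ± 0.08 (SD, n = 3). All Ts1Cje values were below all disomic values there, by a narrow margin, with M = -0.26, a standard error of 0.11 and a 95% confidence interval from -0.56 to 0.05. Its x_at suffix marks probes that may also bind other transcripts. The pair of probe sets designed on 1 other transcript had M values of -0.25 and -0.28, and there the groups overlapped because disomic replicate 3 read as low as the Ts1Cje arrays.

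Ppat read 10.25, 9.88 and 9.86 on disomic and 9.99, 9.78 and 9.35 on Ts1Cje arrays on its brightest probe set. The groups overlapped, with M = -0.29, a standard error of 0.22 and a 95% confidence interval from -0.88 to 0.30. A dimmer probe set on the same transcript read 6.66, 7.24 and 6.48 against 6.91, 6.07 and 6.06, with M = -0.44 and a standard error of 0.35. On both, Ts1Cje replicate 1 lay within the disomic range and Ts1Cje replicate 3 was the lowest array.

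Adsl, the lyase that serves both the formation of IMP and that of AMP, read 8.16, 7.85 and 7.90 on disomic and 7.82, 7.56 and 7.79 on Ts1Cje arrays. The groups did not overlap, though disomic replicate 2 and Ts1Cje replicate 1 were almost level. The mean was 7.97 ± 0.16 against 7.72 ± 0.14 (SD, n = 3), with M = -0.24, a standard error of 0.12 and a 95% confidence interval from -0.57 to 0.08.
Pfas, the amidotransferase that acts between steps of Gart, read 7.34, 7.62 and 7.58 against 7.64, 7.34 and 7.38. With M = -0.06 and a standard error of 0.12, its groups overlapped fully.
Atic, which closes the ring to form IMP, read 9.53, 9.21 and 8.25 on disomic and 9.56, 8.92 and 8.99 on Ts1Cje arrays. Its spread among disomic arrays was the widest of all expressed member probe sets (SD 0.66), so that M = 0.16 had a standard error of 0.42. Without disomic replicate 3, the low array, M was -0.21, and without Ts1Cje replicate 1 it was -0.04.

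**Figure D3:**
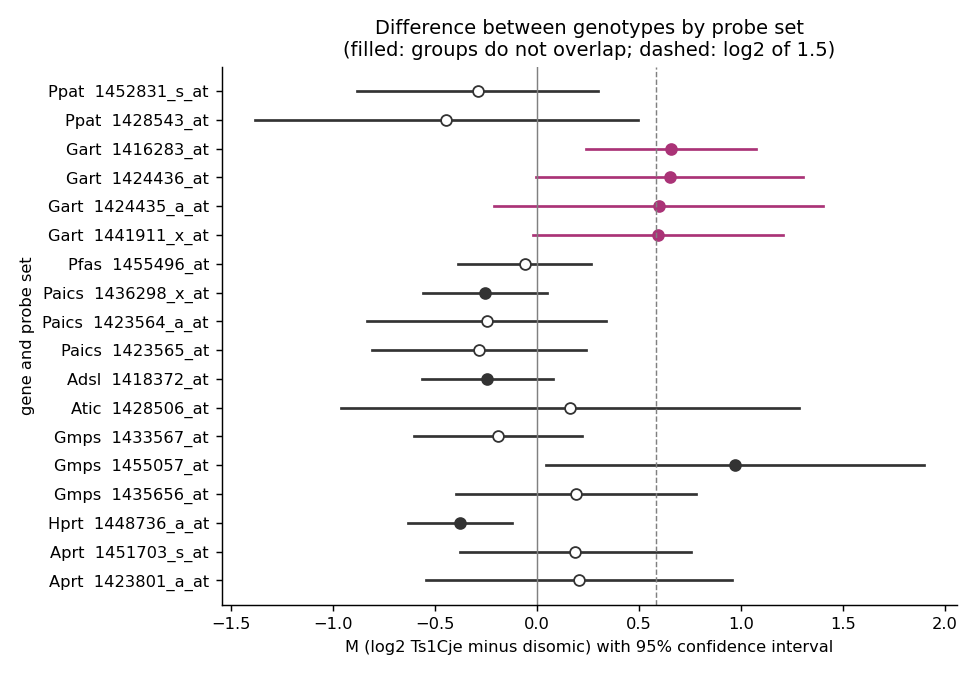
M with its 95% confidence interval from limma for the 18 expressed probe sets, filled where the 3 Ts1Cje and 3 disomic arrays do not overlap, with Gart in colour and the log2 of 1.5 as a dashed line. The 4 Gart intervals all hold the dashed line. Outside Gart, the interval of Hprt lies wholly below 0 and that of Gmps 1455057_at wholly above it.

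Gmps, which aminates XMP to GMP, gave different answers on its 3 probe sets. The brightest, 1433567_at, read 10.08, 10.09 and 9.73 on disomic and 9.90, 9.86 and 9.57 on Ts1Cje arrays, with M = -0.19 and a standard error of 0.15. By contrast 1455057_at read 7.23, 8.12 and 8.09 against 9.20, 8.55 and 8.61. All Ts1Cje values were above all disomic values on that probe set, with M = 0.97, the highest among the members, a standard error of 0.34 and a moderated t of 2.82 in limma. The last, 1435656_at, read 7.85, 8.51 and 8.22 against 8.54, 8.49 and 8.14, with M = 0.19 and a standard error of 0.22. On both dimmer probe sets disomic replicate 1 was the lowest array and Ts1Cje replicate 1 the highest. The mean over the 3 probe sets had M = 0.32, so that the sign for Gmps depended on the probe set taken.

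Among the salvage genes, Hprt stood furthest from 0 relative to its error of all members outside the trisomic region. Hprt, which returns hypoxanthine and guanine to nucleotides, read 8.88, 8.62 and 8.59 on disomic and 8.38, 8.34 and 8.25 on Ts1Cje arrays. All Ts1Cje values were below all disomic values. The disomic mean was 8.70 ± 0.16 and the Ts1Cje mean 8.32 ± 0.07 (SD, 3 arrays each), with M = -0.38, a standard error of 0.09 and a 95% confidence interval from -0.63 to -0.12, or a ratio of 0.770. Its moderated t in limma was -3.98, just short of the threshold, and the adjusted p was 1. A moderated t below -4 was reached by 0.812% of expressed probe sets. Hprt passed the threshold without disomic replicate 1 (M = -0.29, moderated t = -6.02) and without disomic replicate 3 (M = -0.43, moderated t = -4.16). With any other single array left out it fell short, with a moderated t between -3.03 and -3.76. The moderated t was -2.84 when only expressed probe sets were fitted and -2.80 in the fit of probe sets averaged per gene.
Aprt, which recovers adenine, read 9.37, 8.96 and 8.79 on disomic and 8.98, 9.24 and 9.46 on Ts1Cje arrays on its brightest probe set. The groups overlapped, with M = 0.19 and a standard error of 0.21. The other probe set of Aprt had M = 0.21 and a standard error of 0.28, with the arrays in a similar order.

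Taking each gene by its brightest probe set, the 8 members outside the trisomic region had a median M of -0.22, with 6 below 0. For 3 of the 8, Paics, Adsl and Hprt, the groups did not overlap, in each case with lower values in Ts1Cje, while groups did not overlap in either direction for 11.3% of 8947 genes taken in the same way. Over these 8947 genes 46.1% had an M below 0 and the median M was 0.02.

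The difference between Gart and each other member was taken on each array, so that it does not depend on the level of the array as a whole. Gart minus Ppat was higher in Ts1Cje than in disomic arrays by 0.95, Gart minus Paics by 0.91, Gart minus Adsl by 0.90, Gart minus Pfas by 0.72, Gart minus Gmps by 0.85 and Gart minus Hprt by 1.03. For these 6 pairs every Ts1Cje array lay above every disomic array (exact permutation p = 0.1, two-sided, the smallest that 3 against 3 arrays allow, and 0.133 adjusted over the 8 pairs). For Gart minus Atic, with a difference of 0.49, and Gart minus Aprt, with 0.47, the groups overlapped (exact permutation p = 0.4 and 0.2, and 0.4 and 0.229 after adjustment). The 8 differences all hold the same Gart values and are not independent. Taken in the same way against 8946 other genes, Gart minus the gene did not overlap between the groups for 66.9%, so that 6 of 8 is near the background and is no result about these members.

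Markers of dividing cells and the controls for RNA quality moved with the genotype as well. All 19 measured markers of dividing cells were expressed and had an M below 0, against 48.4% of expressed probe sets, with a median of -0.64. Of the 19, Mcm7, Rrm1 and Plk1 had a moderated t below -4 in limma, against 0.812% of expressed probe sets. All Ts1Cje arrays lay below all disomic arrays for 13 of the 19, against 5.21%. The study had already reported proliferation genes, Mcm7, Aurka and Ccna2 among them, as lower in Ts1Cje on these same arrays. These counts are therefore no independent result. The mean log2 level of the 19 markers was 10.37 to 10.58 on disomic and 9.58 to 10.20 on Ts1Cje arrays. Their mean deviation on the arrays was 0.42, 0.21 and 0.35 for disomic and 0.04, -0.58 and -0.43 for Ts1Cje, in the order of replicates. The 8 member genes outside the trisomic region had mean deviations of 0.23, 0.10 and -0.13 for disomic and 0.05, -0.12 and -0.13 for Ts1Cje. These groups overlapped, since disomic replicate 3 lay below Ts1Cje replicates 1 and 2. The mean deviation of the Gart probe sets was -0.15, -0.26 and -0.52 for disomic and 0.62, 0.18 and 0.14 for Ts1Cje. For actin, the 3' less the 5' control signal averaged 1.67 ± 0.15 in the disomic group and 2.02 ± 0.21 in the Ts1Cje group (SD, 3 arrays each). For Gapdh it averaged 2.18 ± 0.10 against 2.34 ± 0.09, and the 18S ribosomal RNA control 11.10 ± 0.78 against 12.22 ± 0.22, without overlap of the groups in any of these controls. The part of cell division and of RNA quality in the values of Gart, Gmps, Hprt, Adsl and Paics was not tested.

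**Figure D4:**
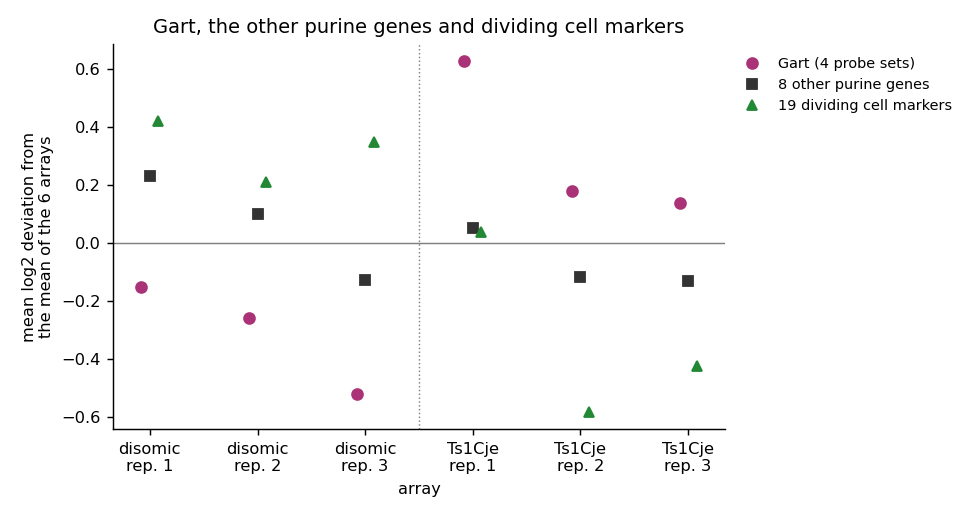
Mean log2 deviation from the mean of the 6 arrays, on each array, for the 4 Gart probe sets, the 8 other purine genes (brightest probe sets) and 19 markers of dividing cells. Gart is above 0 on the 3 Ts1Cje arrays alone, the markers of dividing cells are highest on the disomic arrays, and the other purine genes overlap between the groups.

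The genes around the pathway did not pass the test. In 7 lists of suppliers, branches, breakdown and regulators, 54 genes were expressed, and none had a moderated t past 4 in limma, against 1.82% of all genes taken by their brightest probe set, while 2 of them, Itpa and Adss, had an unadjusted p under 0.05. Their median M was -0.08, with 21 above and 33 below 0, and the groups did not overlap for 4 of the 54 (Adss, Itpa, Guk1 and Cmpk1), against 11.3% of all genes.
The PRPP supply list, enzymes that make the shared substrate and their associated proteins, had an M below 0 for all 4 genes and a median of -0.10. Prps1, a PRPP synthetase, read 9.51, 9.65 and 8.91 on disomic and 9.27, 8.76 and 8.29 on Ts1Cje arrays, with M = -0.58 and a standard error of 0.35, so that the groups overlapped. Prpsap2 and Prpsap1 had M values of -0.11 and -0.05.
In the branch from IMP, Adss, the synthetase that acts before Adsl on the way to AMP, read 10.22, 10.28 and 10.30 on disomic and 10.15, 10.13 and 9.98 on Ts1Cje arrays. These groups did not overlap, and M was -0.18 with a standard error of 0.05. Impdh1, the paralogue of Impdh2, had M = -0.02 with a standard error of 0.05.
Of 16 expressed genes of purine interconversion and breakdown, 6 had an M above 0 and 10 below, with a median of -0.04. Itpa, which clears inosine triphosphate, had M = -0.20 (standard error 0.06) and groups that did not overlap. Ak3 and Adk, kinases of nucleotides and of adenosine, had M = 0.20 and M = 0.25 with overlapping groups.
Folate carries the one-carbon units that Gart and Atic use. Of its 12 expressed genes 7 had an M above 0, with a median of 0.09. Mthfd1, which makes the formyl-folate that both enzymes consume, had M = -0.25 (standard error 0.12), the mitochondrial Shmt2 M = 0.34 (standard error 0.18) and the cytosolic Shmt1 M = -0.51 (standard error 0.31), all with overlapping groups.
The 7 expressed genes of pyrimidine synthesis, the parallel pathway, had a median M of -0.10. Cad, which carries out its first steps, had M = -0.14 (standard error 0.10), Ctps2 M = -0.10 (standard error 0.05) and Cmpk1 M = 0.14 (standard error 0.06), and only for Cmpk1 did the groups not overlap among these 3.
Genes of glutamine and aspartate metabolism had a median M of 0.13 over 4. Asns, which uses both amino acids, was at 0.30, Got1 at -0.23 and Got2 at 0.18. Factors known to regulate the pathway or the growth of cells had a median M of -0.10 over 9. Those with the largest moderated t in either direction were Nrf1 (M = -0.08), Sp1 (M = 0.11) and Atf4 (M = 0.12), all with overlapping groups.

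**Figure D5:**
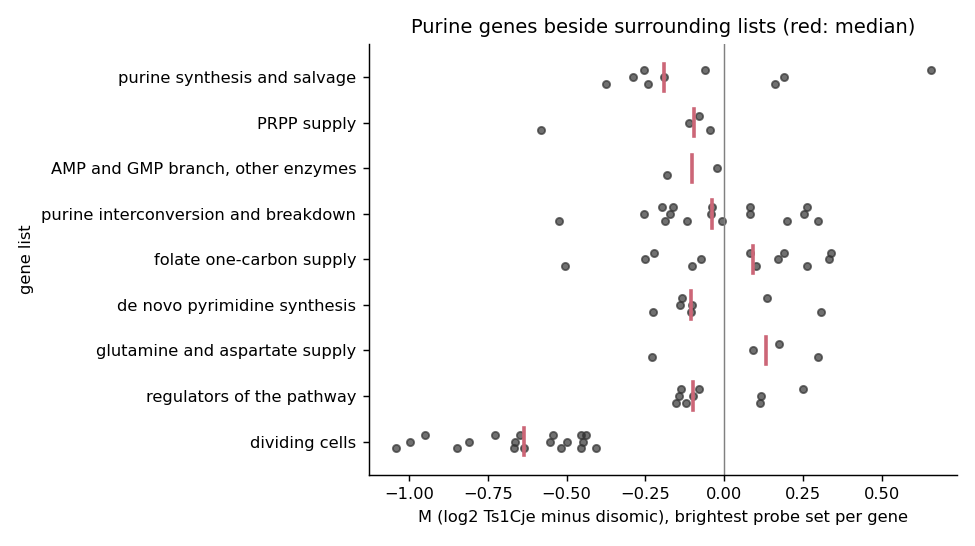
M of each expressed gene by its brightest probe set, from 3 Ts1Cje and 3 disomic arrays, for the purine synthesis and salvage genes, 7 surrounding lists and markers of dividing cells, with the median of each list in red. Gart is the single point near 0.66 in the top row, the surrounding lists lie around 0, and the 19 markers of dividing cells all lie below it.

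The probe sets whose pattern over the 6 arrays was closest to that of the brightest Gart probe set were sought among 14606 expressed probe sets of other genes. Likeness was the root mean square difference after each probe set was centred on its own mean. The closest were Lonrf3 (0.087), Sardh (0.087), Ets2 (0.088), Lmbrd1 (0.097) and Atp6v0a1 (0.104), with M values of 0.61, 0.65, 0.52, 0.69 and 0.47. Because these probe sets were chosen for likeness over the same 6 arrays, M values near that of Gart follow from the choice. Of these 5 only Ets2, a transcription factor gene, lies in the trisomic region. The dimmer probe sets of Gart itself were further away, at 0.286 to 0.313.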

How the data were processed

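Expression was measured on 6 Affymetrix arrays, 1 for each culture, and the authors deposited log2 intensities per probe set that they had made with gcRMA, per the labels and the methods (no version is given in the sources used here). Background correction and probe summary cannot be repeated from these values. The 10 genes and all lists were chosen with earlier results of these data known.

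The study's methods name moderated t-statistics of limma and give no further terms of the array model. Here genotype alone was modelled with limma 3.58.1 in R 4.3.3 on 45037 probe sets, without 64 control probe sets, with moderated t-statistics and Benjamini-Hochberg adjustment over all of them. The prior degrees of freedom were 0.336. A probe set was counted as expressed with A above 5 and as called past a moderated t of 4. Groups came from the sample titles. Of each surrounding list, genes past that t and otherwise up to 3 with the largest t were named, beside all members, the 5 expressed genes on either side of Gart and the 5 probe sets most like it. Trisomic genes were those of chromosome 16 that start after Sod1. Annotation used Python 3.11.15 with pandas 2.3.3, exact permutation tests scipy 1.17.1, and figures matplotlib 3.10.9. On simulated data the fit was required only to return the simulated M on average, which does not test the calls or p-values. The titles call the arrays biological replicates, and their number limits the precision.

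The titles number the replicates of both genotypes without saying that a number marks a littermate pair, and the check described below did not show it, so that no block was used for the values reported. Alternatives were this block, each array left out, cyclic loess, array weights, an intensity-dependent prior, other filters and probe sets averaged per gene.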

Additional observations from a re-analysis of the deposited data

How the results depend on the processing

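The M of Gart kept its sign under all 13 alternatives, and its moderated t stayed past 4 under 8 of them. Beside the arrays left out (M from 0.52 to 0.76), it fell short when the fit held only expressed probe sets (M = 0.66, moderated t = 3.98) and when its probe sets were averaged (M = 0.62, moderated t = 3.51). The number of member probe sets past a moderated t of 4, 1 in the report, was 3 with the replicate block, 2 with array weights, with a prior variance that follows intensity and without flat probe sets, 0 in the fit on expressed probe sets, and with single arrays left out 0 to 2 (0 without Ts1Cje replicate 1 or 2, and 2 without disomic replicate 1). Hprt passed that value in these 4 settings with 2 or 3 calls (moderated t = -6.20 with the replicate block), and Gmps (brightest probe set) with the replicate block alone (moderated t = -11.38). Hprt fell short in the fit on expressed probe sets (moderated t = -2.84) and with cyclic loess (-3.77). The number of surrounding genes past it, 0 in the report, was 3 with the replicate block and 0 to 2 with single arrays left out (2 without Ts1Cje replicate 1, and 1 without Ts1Cje replicate 2, Ts1Cje replicate 3 or disomic replicate 3). The median of the dividing cell markers, recomputed under 12 alternatives chosen after seeing the data, stayed below 0 in all of them. Only 1 of the 3 same-numbered pairs of arrays had deviations from the group means that correlated above 0.1, which does not show whether the numbers mark the littermate pairs of the study. The M of Atic turned to -0.04 without Ts1Cje replicate 1 and to -0.21 without disomic replicate 3, within a range up to 0.43 (without disomic replicate 1), and that of Gmps to 0.32 when its probe sets were averaged. The cause was not tested. Member probe sets with groups that do not overlap, the 4 of Gart included, numbered 8. They numbered 7 with cyclic loess, against 11.1% of all expressed probe sets, and 8 and 7 with expression set at A above 4 and 6, against 10.2% and 11.3%. With single arrays left out they numbered 8 to 11, against 17.2% to 25.3% of all, so that these counts cannot be set against the 8. Arrays that are 3 against 3 limit all of these.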
